A study of Mus musculus with 27 samples.

Results

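The cortex of newborn mice (postnatal day 0, P0) that lack Bcl11a in the dorsal forebrain was compared with that of wild-type controls. The Bcl11a-CKO animals carry Emx1-Cre and 2 floxed Bcl11a alleles (Bcl11aFlox/Flox), and the controls are labelled wildtype, so the labels give them neither Cre nor floxed alleles. Each group has 3 libraries of bulk cortex RNA, 6 of the 27 libraries of the series, and the labels' other groups at P0, Bcl11ab-DCKO (Bcl11a and Bcl11b floxed, with Emx1-Cre), and at embryonic days 13.5 and 15.5 (E13.5 and E15.5) were used only where named. The comparison covers the 13423 genes that the P0 table lists, of which 12576 had a mean of at least 1 CPM (read counts scaled to a fixed library total) and were tested. Nothing in the labels says which animal each library came from, so the p-values rest on the spread between libraries, part of which may be technical.

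Bcl11a encodes a zinc-finger transcription factor that is expressed in projection neurons of the cortex and that acts mostly as a repressor, in part through chromatin-remodelling complexes. Emx1-Cre recombines in dorsal forebrain progenitors, the source of the cortex's glutamatergic neurons and of much of its glia, and spares the GABAergic interneurons that migrate in from the ventral forebrain. At birth the cortex holds subplate and deep-layer neurons that have settled, upper-layer neurons that are still arriving, and Cajal-Retzius neurons at its surface.

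The level of Bcl11a itself did not separate the groups. Bcl11a (ENSMUSG00000000861, chromosome 11, 24078056 to 24174123, mm10) was at 492, 319 and 417 CPM in the control libraries and at 474, 450 and 483 CPM in the Bcl11a-CKO libraries, and the ranges overlap. The log2 difference, mutant minus control on the log2(CPM + 1) scale used throughout for P0, was 0.22 ± 0.14 (SE, n = 3 against 3; limma, adjusted p = 0.315). The removed exons are not named in the labels, and reads from the rest of the gene still count towards this value, so it is no test of the deletion. Bcl11b at P0 was not analysed here.

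The control libraries differed more from one another than the mutant libraries did. The chi-square value per gene between 2 libraries, which sampling noise alone would set near 1, was 21.2 to 29.7 within the controls, 6.38 to 9.63 within the Bcl11a-CKO and 27.4 to 49.1 across the groups. The first principal component, with 52% of the variance, separated the groups and put control replicate 1 farthest out. The summed level of 12 meningeal genes was 358 to 1025 CPM in the controls and 696 to 834 CPM in the Bcl11a-CKO. The median log2 difference of these genes was 1.29 (-0.21 to 2.05), higher in the mutants, but all overlapped and none passed. Col3a1, a collagen of fibroblasts, was at 1.90, 114 and 38.9 CPM in the controls and at 89.3, 116 and 87.4 CPM in the mutants. Whether the pieces held equal amounts of meninges was not tested. The summed level of 4 Y-linked genes ranged from 0.322 to 230 CPM among the controls and from 0.042 to 198 CPM among the mutants, so each group mixes libraries with and without these transcripts. Their log2 differences ran from -2.24 to -1.32 (median -2.03), lower in the mutants, and none passed. Whether the groups hold equal shares of each sex was not tested. Reads recovered from the CPM steps gave 17041458 to 25693590 reads per library, and the listed genes hold 82.0% to 86.3% of them.

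Of the 12576 genes tested, 70 passed limma at an adjusted p under 0.05 (0.557%), 26 of which rose (0.207%) and 44 fell (0.35%). The libraries of the groups did not overlap for any of these 70 genes; over all genes tested, 19.3% were higher and 15.2% lower without overlap. The smallest absolute log2 difference among the 70 was 1.32. The median signed difference over all genes tested, beside which the list medians below can be read, was 0.04. The table does not hold a random share of the genes: the largest unadjusted p among the 70 was 8.3e-06 and the smallest among the other 12506 was 0.000721, with no listed gene between. The 70 are therefore the listed genes that passed the adjusted threshold, not all that changed and not a count for the genome. Each adjusted p depends on which genes the table holds. At an unadjusted limma p under 0.05, 16.4% of the genes tested were higher and 12.8% lower in the mutants. By GENCODE gene type, 42 of the 70 are protein-coding (14 rose, 28 fell; 0.367% of 11450 tested), 19 are pseudogenes (6 rose, 13 fell; 10.7% of 177), 5 are long non-coding RNAs, 2 lie on the mitochondrial genome and 2 are of other types.

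**Figure D1:**
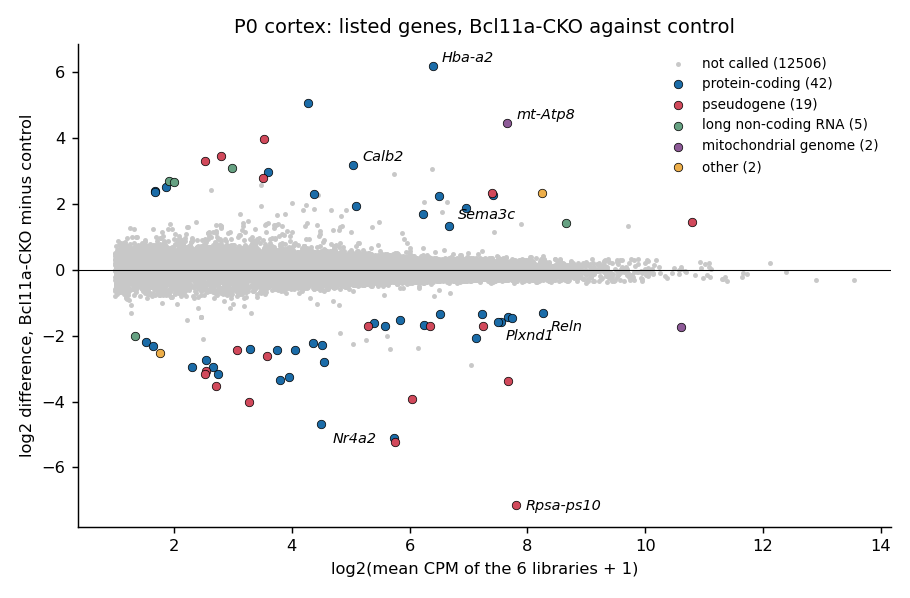
Log2 difference at P0 (Bcl11a-CKO minus control) against log2 of the mean CPM over the 6 libraries plus 1, for the 12576 genes tested. Grey points did not pass, and coloured points are the 70 called genes by gene type; Nr4a2 is the lowest protein-coding gene and Hba-a2 is the highest gene.

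Of 19 nuclear receptor and retinoid genes tested, 3 fell and none rose, beside 0.35% and 0.207% of all genes tested. The same shares of the listed genes stand beside the list counts below. Nr4a2 (ENSMUSG00000026826, chromosome 2, 57106830 to 57124003, minus strand), an orphan nuclear receptor that marks subplate neurons and some deep-layer and claustral neurons, was at 110, 104 and 91.8 CPM in the controls and at 1.92, 2.23 and 1.84 CPM in the Bcl11a-CKO. All 3 mutant libraries thus lay 51.1-fold below the controls in the mean (log2 difference -5.10 ± 0.12, limma, adjusted p = 7.76e-08). Rxrg, the gamma retinoid X receptor, fell from 30.6, 15.3 and 26.8 CPM to 1.92, 0.704 and 1.72 CPM (-3.35 ± 0.28, adjusted p = 0.000172). Crabp1, which binds retinoic acid in the cytoplasm, fell from 8.83, 12.6 and 11.6 CPM to 0.638, 0.117 and 0.293 CPM (-3.16 ± 0.20, adjusted p = 3.29e-05). The list's median was 0.07, and Rxra, the alpha retinoid X receptor, had a difference of 0.53 ± 0.15 that did not pass (adjusted p = 0.0914). Outside that list, Npas2, a basic helix-loop-helix factor related to the clock gene Clock, fell from 29.3, 36.3 and 45.1 CPM to 7.70, 5.28 and 7.16 CPM (-2.29 ± 0.18).

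Nr4a2 was the only one of 7 subplate genes tested to pass, and the median of the list was -0.51. Cplx3, a complexin of subplate neurons, was at 1.59, 1.44 and 1.93 CPM in the controls and at 0.84, 0.82 and 0.80 CPM in the mutants, a difference of -0.54 ± 0.17 that did not pass (adjusted p = 0.0964). Moxd1 was also lower without overlap (-0.65 ± 0.18, adjusted p = 0.0914), while Rrp1 was higher without overlap (0.30 ± 0.08, adjusted p = 0.0909). In bulk tissue, fewer cells of a type and less RNA per cell cannot be told apart.

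The sequences before the start sites of 3 genes that changed at more than 1 age (Nr4a2, Reln and Sema3c, described here and below) and of Npas2 are shown because the BCL11A protein is known to bind the motif TGACCA. Each is the 250 bases upstream of the RefSeq start (GRCm38.p6), on the strand of the gene, 5′ to 3′, with capitals for TGACCA or its reverse complement TGGTCA. The GENCODE spans of Sema3c and Npas2 start farther upstream, at 17574281 and 39193731, so these windows lie inside the annotated genes.
Nr4a2, chr2:57124004-57124253, minus strand: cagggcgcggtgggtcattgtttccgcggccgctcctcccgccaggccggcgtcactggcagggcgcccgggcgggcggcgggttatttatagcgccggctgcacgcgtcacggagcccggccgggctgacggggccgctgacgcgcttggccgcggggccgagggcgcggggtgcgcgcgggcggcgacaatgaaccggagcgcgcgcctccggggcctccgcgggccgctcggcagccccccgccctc
Reln, chr5:22344706-22344955, minus strand: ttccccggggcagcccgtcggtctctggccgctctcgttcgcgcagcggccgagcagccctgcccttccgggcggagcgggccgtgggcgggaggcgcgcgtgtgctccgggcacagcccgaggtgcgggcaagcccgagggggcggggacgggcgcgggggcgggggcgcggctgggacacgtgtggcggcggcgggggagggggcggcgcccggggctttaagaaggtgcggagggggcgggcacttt
Sema3c, chr5:17574566-17574815, plus strand: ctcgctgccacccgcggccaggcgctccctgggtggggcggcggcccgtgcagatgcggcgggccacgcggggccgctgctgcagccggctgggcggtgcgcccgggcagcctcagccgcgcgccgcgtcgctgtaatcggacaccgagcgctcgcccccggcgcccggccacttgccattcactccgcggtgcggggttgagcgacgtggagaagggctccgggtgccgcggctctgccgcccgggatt
Npas2, chr1:39194022-39194271, plus strand: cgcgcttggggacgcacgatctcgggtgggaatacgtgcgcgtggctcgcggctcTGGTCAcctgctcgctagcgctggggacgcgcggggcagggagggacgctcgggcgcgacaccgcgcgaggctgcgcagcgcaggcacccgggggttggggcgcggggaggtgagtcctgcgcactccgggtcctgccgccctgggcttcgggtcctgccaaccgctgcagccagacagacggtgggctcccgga
Of the called protein-coding genes, 9 of 14 that rose and 20 of 28 that fell have such a window. The motif, searched on either strand, stands in 0 of the 9 and 1 of the 20, Npas2. There its first base lies 195 bases before the RefSeq start and inside the GENCODE gene span. It stands in 11.4% of all 32851 windows and in 11.3% of the 9214 tested genes with a window. A match is a run of letters and not a binding site, and 250 bases leave out most of the regulatory sequence of a gene.

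Several genes known from striatal projection neurons fell. Of 6 striatal genes tested, 4 fell and none rose, beside 0.35% and 0.207% of all genes tested, with a list median of -2.46. Ebf1, a transcription factor of striatal differentiation that is also made in other cells, fell from 26.6, 18.5 and 35.7 CPM to 2.59, 1.70 and 1.38 CPM (-3.25 ± 0.25, adjusted p = 7.57e-05). Tac1, the substance P precursor, fell from 9.71, 8.02 and 9.48 CPM to 0.678, 0.235 and 0.670 CPM (-2.73 ± 0.18). Six3, a homeobox gene of the ventral forebrain, had 260 reads over the control libraries and 2 over the mutant libraries, a depth-scaled ratio of 122 (95% counting interval 33.5 to 1016). Six3 shares exonic bases with Six3os1 and Gm28528, so its own reads are uncertain. The controls and mutants were 16.8-fold apart for Rxrg, which striatal neurons also express and which stands in another list.

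The other striatal genes tested did not pass. Drd1, the D1 dopamine receptor, was at 15.7, 11.5 and 21.7 CPM in the controls and at 9.10, 10.3 and 9.75 CPM in the mutants, lower without overlap but short of the threshold (-0.65 ± 0.20, adjusted p = 0.0987). Meis2, a homeobox gene that striatal and some cortical cells share, was level (0.04 ± 0.08, adjusted p = 0.776), and its sign turned in 4 other settings, down to -0.02. Of 7 further striatal genes in the list no values were analysed here, and whether the dissected pieces held equal amounts of tissue from below the cortex was not tested. Emx1, which marks the dorsal telencephalon, was at 38.4, 27.4 and 38.6 CPM in the controls and at 25.1, 22.4 and 24.3 CPM in the mutants, a difference of -0.51 ± 0.14 that did not pass (adjusted p = 0.0914). It was also lower without overlap, and did not pass, at E13.5 (-0.30 ± 0.10, edgeR, adjusted p = 0.133) and E15.5 (-0.22 ± 0.12, adjusted p = 0.503). By the labels only the mutants carry Emx1-Cre, so Emx1 does not measure dorsal tissue apart from genotype here.

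**Figure D2:**
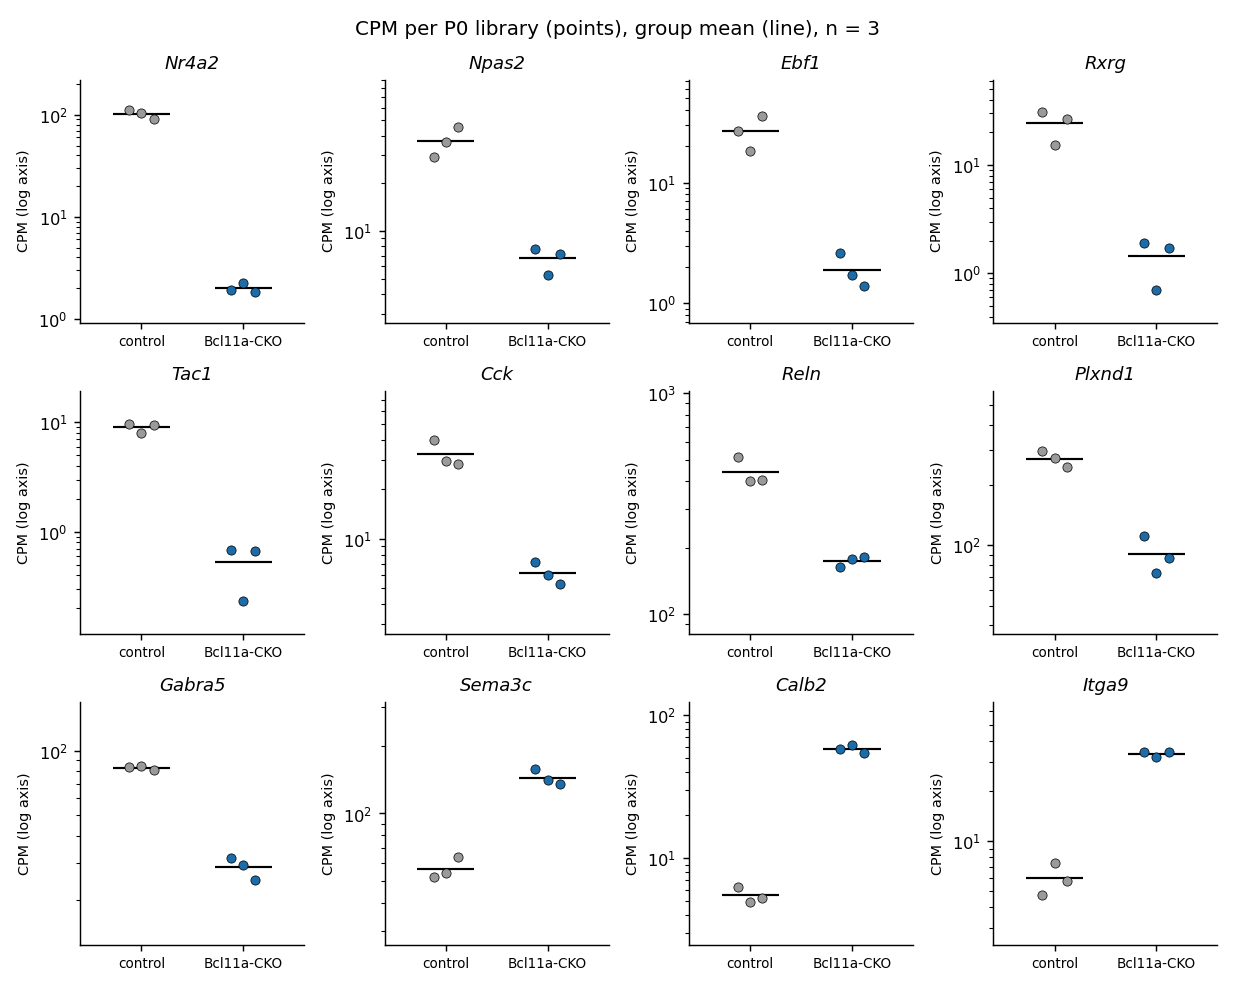
CPM per library on a log axis for 12 called genes at P0, with 3 control and 3 Bcl11a-CKO libraries (points) and the group mean (line). No mutant point reaches the range of the controls: Sema3c, Calb2 and Itga9 lie above it and the other 9 genes below it.

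The neuropeptide list came next. Cck, the cholecystokinin precursor of cortical neurons, fell from 39.8, 29.5 and 28.7 CPM to 7.18, 5.99 and 5.27 CPM (-2.23 ± 0.16, adjusted p = 6.46e-05). With Tac1 it made up the 2 of 12 neuropeptide genes that passed, beside 0.35% of all genes tested that fell. The list's median was -0.07. Fam19a2, which encodes a secreted chemokine-like protein, fell from 235, 199 and 236 CPM to 62.0, 49.6 and 45.4 CPM (-2.08 ± 0.12). Tgfa, a ligand of the epidermal growth factor receptor, fell from 72.1, 57.1 and 57.5 CPM to 20.6, 17.6 and 20.4 CPM (-1.62 ± 0.12). Gabra5, the alpha 5 subunit of extrasynaptic GABA-A receptors, fell from 84.1, 84.5 and 81.1 CPM to 31.6, 29.2 and 24.7 CPM (-1.52 ± 0.10), 1 of 9 GABA receptor genes tested. Gdf1, a growth factor gene, fell to 0, 0.352 and 0 CPM from 6.84, 9.93 and 6.49 CPM, but it shares exonic bases with Cers1 and Upf1 and its own reads are uncertain.

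Of the other protein-coding genes that fell, some act in adhesion or the cytoskeleton. Cdh12, a type II cadherin, fell from 21.0, 19.5 and 24.1 CPM to 3.07, 3.87 and 2.60 CPM (-2.44 ± 0.16, adjusted p = 3.42e-05), 1 of 22 cadherins and protocadherins tested. Col25a1, a membrane-spanning collagen, fell from 27.6, 27.1 and 26.7 CPM to 4.07, 4.05 and 4.44 CPM (-2.44 ± 0.12). Ddn, the dendrite protein dendrin, fell from 39.7, 52.6 and 27.8 CPM to 5.94, 4.11 and 4.39 CPM (-2.79 ± 0.22), and Nexn, an actin-binding protein, from 12.4, 7.75 and 10.4 CPM to 0.638, 0.352 and 0.335 CPM; each shares exonic bases with an overlapping transcript. Ngef, a guanine nucleotide exchange factor of neurons, fell from 79.0, 61.3 and 76.2 CPM to 24.5, 20.2 and 19.5 CPM (-1.71 ± 0.13). Caln1, a calcium-binding protein of neurons, fell from 297, 287 and 308 CPM to 120, 107 and 102 CPM (-1.44 ± 0.08, adjusted p = 1.46e-05). Further protein-coding genes that fell were Sla, Trank1, Tmem158, Pcsk1n, Plcxd2, Gm11808 and E130208F15Rik, with log2 differences of -1.33 to -2.40. For Gm11808 the P0 Bcl11a-CKO stood apart, with a mean of 2.09 CPM against 15.3 CPM in the controls and 12.4 CPM in the Bcl11ab-DCKO. Its control and Bcl11a-CKO means were 109 and 96.8 CPM at E13.5, and 90.0 and 93.7 CPM at E15.5. E130208F15Rik had 302 reads in the controls and none in the mutants, at least 94.8-fold lower at a floor of 3 reads over the group. It shares exonic bases with Sdhaf1, so its own reads are uncertain. Its means in the Bcl11a-CKO were 13.8 CPM at E13.5 and 13.4 CPM at E15.5.

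Of the guidance genes, 1 rose and 1 fell. Sema3c (ENSMUSG00000028780, chromosome 5, 17574281 to 17730268, plus strand), a secreted class 3 semaphorin, was at 51.9, 54.3 and 63.7 CPM in the controls and at 157, 141 and 135 CPM in the Bcl11a-CKO (1.34 ± 0.10, adjusted p = 6.49e-05). Plxnd1, a plexin receptor for class 3 semaphorins that is expressed in upper-layer callosal neurons, fell from 295, 273 and 245 CPM to 112, 72.6 and 86.3 CPM (-1.59 ± 0.14, adjusted p = 0.000281). Of this ligand and receptor class, Sema3c was thus 2.55-fold higher and Plxnd1 3.00-fold lower in the means. Plxnd1 was the 1 gene to pass of 8 upper-layer genes tested (list median 0.10). Sema3c and Plxnd1 are the 2 of 30 axon guidance and migration genes that passed, beside 0.557% of all genes tested. Without overlap, 9 of the 30 were higher and 4 lower, beside 19.3% and 15.2% of all genes tested, and the list's median was 0.04. Efnb1 (0.32 ± 0.08, adjusted p = 0.0909), the netrin receptor gene Dcc (0.54 ± 0.17, adjusted p = 0.0969) and Plxna4 (0.32 ± 0.10, adjusted p = 0.0987) were higher without overlap and did not pass. Itga9, an integrin subunit, rose from 4.77, 7.40 and 5.75 CPM to 34.2, 32.0 and 34.1 CPM (2.32 ± 0.15, adjusted p = 3.42e-05).

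The 2 Cajal-Retzius genes tested moved apart. Reln (ENSMUSG00000042453, chromosome 5, 21884454 to 22344702, minus strand), the secreted glycoprotein that orders the layers, was at 512, 399 and 405 CPM in the controls and at 163, 178 and 181 CPM in the Bcl11a-CKO (-1.32 ± 0.10, adjusted p = 9.94e-05). Calb2, the calcium-binding protein calretinin, rose from 6.31, 4.94 and 5.25 CPM to 58.3, 62.0 and 54.7 CPM (3.19 ± 0.12, adjusted p = 1.19e-06), 10.6-fold in the means. Calretinin is made by Cajal-Retzius neurons, by interneurons and by thalamic neurons, and Calb2 was the 1 gene to pass of 8 GABAergic interneuron genes and of 3 thalamic genes. The GABAergic list had a median of -0.05. In the P0 Bcl11ab-DCKO, set beside these with no test because its table shares the control libraries, Calb2 was at 158, 139 and 158 CPM, Reln at 121, 127 and 116 CPM, Nr4a2 at 1.02, 1.34 and 1.62 CPM and Npas2 at 1.32, 1.59 and 2.02 CPM. Each of these 4 genes, of the 20 called genes listed for both mutants, lay on the same side of the controls in the 2 mutants. Because the controls are the same libraries, this is not an independent repeat.

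Other protein-coding genes that rose have varied roles. Glo1, glyoxalase 1, which detoxifies methylglyoxal, rose from 46.0, 69.4 and 59.5 CPM to 259, 301 and 282 CPM (2.26 ± 0.14, adjusted p = 2.14e-05). Gldc, the decarboxylase of the glycine cleavage system, which is strong in radial glia and astrocytes, rose from 11.1, 15.2 and 12.7 CPM to 54.3, 50.5 and 53.6 CPM (1.95 ± 0.12). Sypl2, a synaptophysin-like membrane protein, rose from 2.07, 1.79 and 1.43 CPM to 21.2, 20.5 and 19.7 CPM (2.97 ± 0.15). Its means in the E13.5 and E15.5 controls, normalized separately, were 17.3 and 14.3 CPM. The P0 controls of Sypl2 were thus low beside the P0 mutants and the embryonic controls. Glo1 shares exonic bases with 3 overlapping transcripts. Rps29 (1.87 ± 0.12) and Rpl26 (2.23 ± 0.10) encode ribosomal proteins with many processed copies in the genome, and Gm3488, Gm3752 and Gm8113 belong to a multicopy family on chromosome 14, so reads of these 5 genes may have been split among copies. Gm20388, which spans other genes and shares exonic bases with Galnt2 and Usp10, had 0 reads in the controls and 24.6, 23.1 and 61.9 CPM in the mutants, at least 881-fold higher.

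Most gene lists held no gene that passed. None passed among 9 layer 5 and 5 layer 6 neuron genes, 6 genes of layer 4 and sensory areas, 6 callosal genes, 12 radial glia, 9 intermediate progenitor and 24 cell cycle genes, 31 Wnt pathway genes, 30 BAF and NuRD complex genes, 16 glutamate receptor genes or 38 voltage-gated channel genes. Of 23 synapse gene entries tested, 8 were lower and 2 higher without overlap, beside 15.2% and 19.3% of all genes tested, and none passed. Dlg4 (-0.36 ± 0.10) and Homer1 (-0.33 ± 0.08) were among the lower. In the Wnt list 6 of 31 were higher without overlap, a share close to the 19.3% of all genes tested, and 0 were lower; Nkd1 (0.54 ± 0.14) and Wnt5a (0.68 ± 0.23) were among the 6, and the list median was 0.11. Among progenitor genes, Hes1 was at 9.62, 8.37 and 5.75 CPM against 3.91, 4.17 and 4.94 CPM (-0.72 ± 0.19), Pax6 had 0.43 ± 0.13 and Mcm5 0.53 ± 0.12, with adjusted p-values of 0.0909, 0.0964 and 0.0909. Bcl2l11, a pro-apoptotic gene, had 0.58 ± 0.13 (adjusted p = 0.0909) in a list of 15 p53 and apoptosis genes. Of these, 5 were higher and 1 lower without overlap, beside 19.3% and 15.2% of all genes tested. The Wnt antagonist Frzb was at 2.03, 3.04 and 2.35 CPM in the controls and at 2.19, 3.99 and 2.68 CPM in the mutants, with overlap. With genes left out of the table by their p-value, a list with no call does not show that its genes were level.

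**Figure D3:**
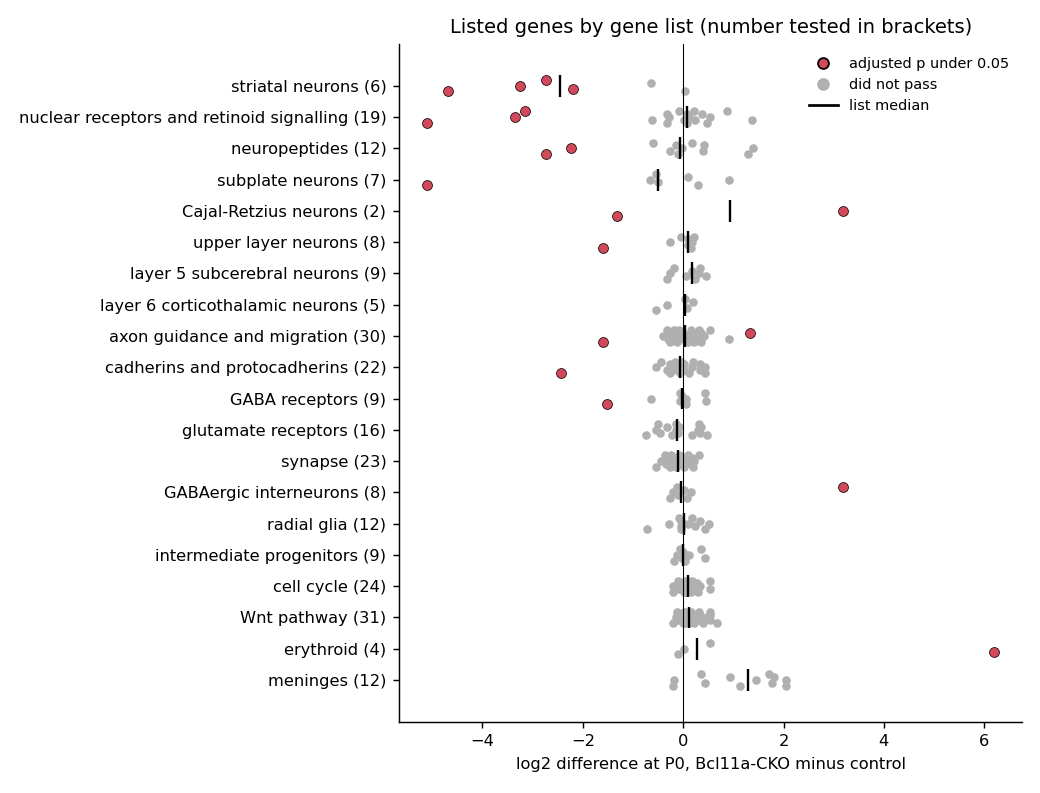
Log2 difference at P0 (Bcl11a-CKO minus control) of each tested gene in 20 gene lists, with red points for genes at an adjusted p under 0.05 and a bar for the list median. The striatal list lies farthest to the left, with a median of -2.46, and the meningeal list farthest to the right, with a median of 1.29. Most other medians lie near 0.

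The called genes were then looked up in the embryonic cortex, in other animals and a separate table of counts. Of the 70, 55 are in that table and 48 could be tested with edgeR. At E13.5, with 3 libraries a group, 3 passed (6.25%, against 2.59% of all 14947 genes tested), 2 of them up (1.72%) and 1 down (0.87%). At E15.5, with 2 units a group after the libraries from the sides of 1 animal were summed, 4 passed (8.33%, against 1.93%), 1 up (1.24%) and 3 down (0.689%). Sema3c was higher at each age: at E13.5 it was at 21.7, 21.0 and 20.1 CPM in the controls and at 82.4, 51.1 and 40.2 CPM in the Bcl11a-CKO (log2 fold change 1.47 ± 0.23, edgeR, adjusted p = 0.00384), and at E15.5 at 31.8 and 38.5 against 139 and 122 CPM (1.88 ± 0.27, adjusted p = 0.00254). Without control replicate 1, the E15.5 value of Sema3c was 1.77 with an adjusted p of 0.0506.

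Reln was lower at each age. At E15.5 it was at 448 and 484 CPM in the controls and at 225 and 190 CPM in the Bcl11a-CKO (-1.17 ± 0.15, edgeR, adjusted p = 0.00163), a call kept whichever unit was left out. At E13.5 the difference was smaller (-0.58 ± 0.13, adjusted p = 0.0262), from 219 to 302 CPM in the controls and from 156 to 187 CPM in the mutants. That call was lost without control replicate 2, without control replicate 3, without Bcl11a-CKO replicate 1 and without Bcl11a-CKO replicate 3 (adjusted p = 0.103, 0.0772, 0.0568 and 0.0684).

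Nr4a2 was level at E13.5 and low at E15.5. Its E13.5 libraries overlapped (24.8, 26.1 and 42.8 against 28.4, 39.0 and 39.5 CPM; 0.19 ± 0.22, edgeR, adjusted p = 0.73), while at E15.5 it was at 32.2 and 31.0 CPM in the controls and at 7.51 and 8.85 CPM in the mutants (-1.93 ± 0.30, adjusted p = 0.00479). The adjusted p at E15.5 was 0.0596 without Bcl11a-CKO replicate 1 and 0.0575 without replicates 2 and 3, the animal whose sides were summed. Sla, an adaptor protein of receptor tyrosine kinase signalling, fell at E15.5 from 243 and 227 CPM to 70.8 and 61.3 CPM (-1.83 ± 0.32, adjusted p = 0.00914) and at P0 from 332, 335 and 267 CPM to 114, 117 and 107 CPM (-1.45 ± 0.10). Its E15.5 call was lost without control replicate 1, without Bcl11a-CKO replicate 1 and without the mutant's summed animal (adjusted p = 0.078, 0.0726 and 0.109).

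Ebf1 changed in opposite directions in the embryo and at birth. At E13.5 it was at 7.76, 4.34 and 7.31 CPM in the controls and at 18.6, 20.1 and 24.1 CPM in the Bcl11a-CKO, a rise of 1.69 ± 0.25 (edgeR, adjusted p = 0.00254) that passed whichever library was left out. At E15.5 it was at 2.20 and 1.89 against 3.99 and 3.39 CPM (0.83 ± 0.43, adjusted p = 0.449), and at P0 it fell by 3.25. The ages stand in separately normalized tables, so the difference between ages was not tested.

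**Figure D4:**
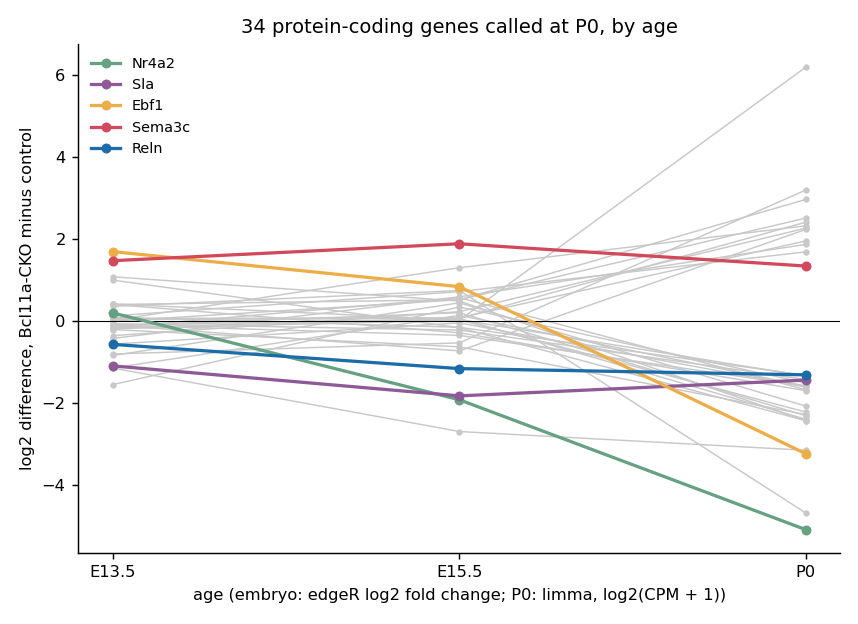
Log2 difference (Bcl11a-CKO minus control) at E13.5, E15.5 and P0 for the 34 protein-coding genes called at P0 that were tested at all 3 ages. Sema3c lies above 0 and Reln below 0 at each age, Nr4a2 starts near 0, Ebf1 crosses from 1.69 to -3.25, and most other genes (grey) lie nearer to 0 in the embryo than at P0.

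Many of the genes that fell were barely expressed in the embryo. Among the 27 protein-coding genes that fell and have embryonic values, the median level was 2.92 CPM in the E13.5 control, 6.92 CPM in the E15.5 control, 42.3 CPM in the P0 control and 6.15 CPM in the P0 Bcl11a-CKO. In 24 of the 27 the P0 control was above the E15.5 control, against 3 of the 14 protein-coding genes that rose. Genes were chosen as fallen or risen partly by a high or low P0 control, which favours this contrast. These levels come from tables normalized separately and are given as a description.

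The remaining calls were globin, mitochondrial, ribosomal RNA and pseudogene entries, in which the P0 controls or one P0 group stood apart. Hba-a2, an adult alpha-globin gene, was at 1.41, 1.64 and 0.782 CPM in the controls and at 173, 176 and 144 CPM in the Bcl11a-CKO (6.20 ± 0.16, adjusted p = 9.87e-08). Of 4 erythroid genes tested it was the only one to pass: the adult beta-globin genes Hbb-bs (173, 293 and 177 against 198, 232 and 158 CPM) and Hbb-bt (26.9, 50.4 and 30.7 against 31.0, 41.3 and 33.6 CPM) and the haem enzyme gene Alas2 (2.87, 6.66 and 3.86 against 5.98, 7.63 and 6.40 CPM) overlapped. Hba-a2 was at 147 to 183 CPM in the P0 Bcl11ab-DCKO, and its mean was 153 CPM in the E13.5 control and 70.6 CPM in the E15.5 control. mt-Atp8, a mitochondrial ATP synthase subunit gene that overlaps mt-Atp6, was at 17.5, 16.2 and 15.3 CPM in the P0 controls, at 400, 417 and 336 CPM in the Bcl11a-CKO and at 536 to 604 CPM in the Bcl11ab-DCKO, with means of 567 and 609 CPM in the E13.5 and E15.5 controls. For Hba-a2 and mt-Atp8 the P0 control libraries were thus low beside every other group shown. mt-Co2, a mitochondrial cytochrome oxidase subunit gene, went the other way, from 2589, 2444 and 2170 CPM in the P0 controls to 707, 824 and 641 CPM in the Bcl11a-CKO (-1.73 ± 0.11, adjusted p = 3.29e-05). Its means in the E13.5 and E15.5 controls were 2151 and 2303 CPM, so here the P0 mutants, not the P0 controls, stood apart. Gm28661, an unprocessed pseudogene on chromosome 1, rose from 896, 1022 and 960 CPM to 2665, 2675 and 2492 CPM (1.44 ± 0.08, limma, adjusted p = 1.86e-05). Whether reads were divided differently between mt-Co2 and Gm28661 in the 2 groups was not tested, so the fall of mt-Co2 may not be a loss of its transcript.

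Rn18s-rs5, an 18S ribosomal RNA sequence, was high in the Bcl11a-CKO alone among the P0 groups, at 549, 462 and 514 CPM against 109, 93.7 and 100 CPM in the controls and 91.6, 117 and 97.1 CPM in the Bcl11ab-DCKO. Malat1, a nuclear long non-coding RNA, rose from 250, 201 and 201 CPM to 527, 686 and 561 CPM (1.44 ± 0.12, adjusted p = 0.00016). Among pseudogenes, which share most of their sequence with a parent gene, Rpsa-ps10 fell from 569, 506 and 263 CPM to 2.27, 2.11 and 1.67 CPM (-7.14 ± 0.25), Gm4366 from 119, 93.8 and 100 CPM to 1.60, 1.76 and 1.97 CPM (-5.24 ± 0.13), and Gm10222 rose from 57.5, 50.8 and 55.9 CPM to 280, 294 and 271 CPM (2.35 ± 0.08). Pseudogenes were called at 10.7% against 0.367% of protein-coding genes. The library names of the controls follow another pattern than those of the mutants, and whether the groups were prepared or counted together cannot be told apart from genotype in these 6 libraries.

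**Figure D5:**
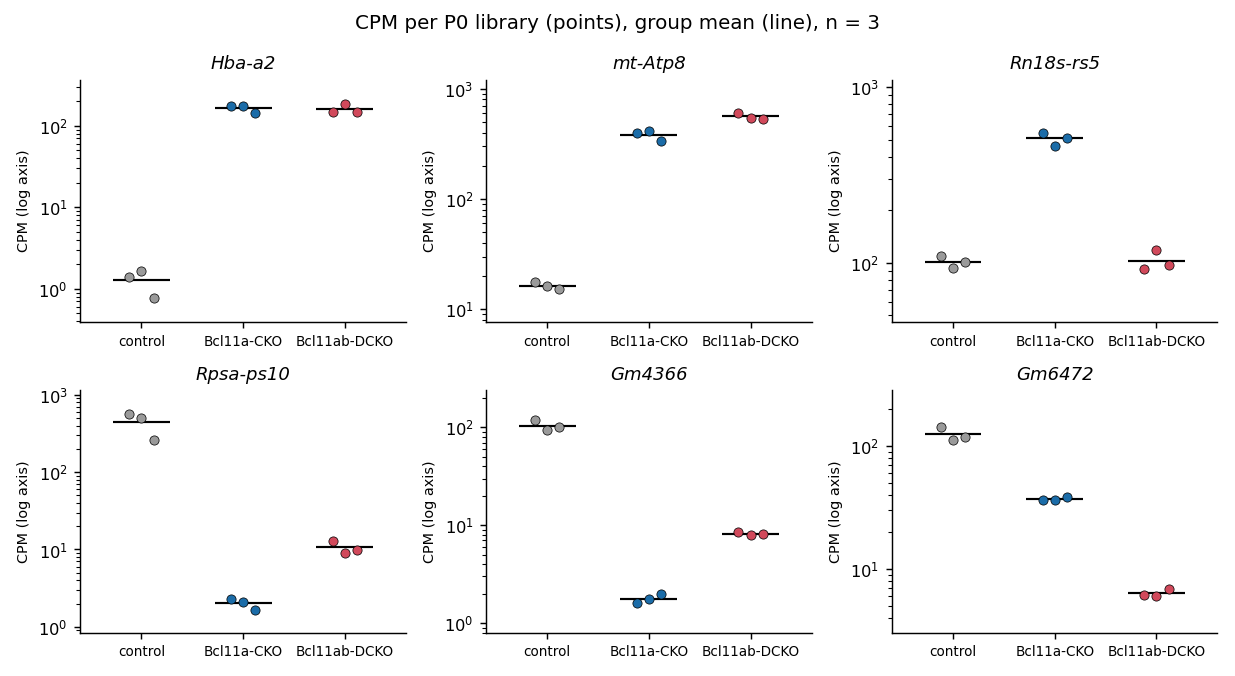
CPM per P0 library on a log axis for 6 called genes in the control, Bcl11a-CKO and Bcl11ab-DCKO (points; line, group mean; 3 libraries each). Hba-a2 and mt-Atp8 are low in the controls only, Rn18s-rs5 is high in the Bcl11a-CKO only, and the 3 pseudogenes are higher in the controls than in the mutants.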

How the data were processed

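Bulk RNA of mouse cortex was sequenced, and samples were grouped from their titles. The tools listed in the submitters' processing notes are HISAT2 (2.0.4), StringTie (1.3.0) and edgeR, with the build mm10; strandedness is not given in the sources used here. Per the file headers, the authors deposited the P0 values as CPM and the embryonic values as whole-number read counts. The P0 table also holds the authors' log2 CPM average and log2 fold change, per the file headers, which were not used. The P0 CPM were whole multiples of 1 read in 99.99% to 100% of values per library (tolerance 0.00051 CPM).

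Genes averaging 1 CPM or more were fitted with limma 3.58.1 (trend) on log2(CPM + 1), which understates changes of low genes, adjusted by Benjamini-Hochberg over all genes tested; an adjusted p at P0 is limma's. Embryonic counts were fitted with edgeR 4.0.16 quasi-likelihood tests (R 4.3.3, TMM, 6 groups, 16 units of 4359817 to 9707052 counts) and filterByExpr. E15.5 libraries sharing a title number were summed. Gene types, positions and overlaps come from GENCODE M21 (13393 of 13423 genes matched), start-site sequences from RefSeq GRCm38.p6. Of the protein-coding genes named without that warning, Reln, Gabra5, Cdh12, Ngef, Tgfa and Pcsk1n also share exonic bases with another annotated gene. ± is the SE of a log2 difference. Intervals and floors cover counting error only.

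The members and the 37 gene lists were chosen with earlier results of these data known. Named were the deleted genes, the 15 strongest rises and 15 strongest falls among called genes (non-overlapping groups, higher group averaging 5 CPM or more), the called members of each list with up to 4 more by p, Frzb and Sema3c; other called genes were named after their values were seen. A few items that the rule names are not reported here. The scripts were tested on simulated data. Alternatives were pseudocounts of 0.1 and 5, other filters, TMM, no trend, edgeR and DESeq2 1.42.0 on recovered reads, a replicate block and each library left out.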

Additional observations from a re-analysis of the deposited data

Results flagged for a closer look

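Genes called at P0 were flagged where, at 1 embryonic age, every Bcl11a-CKO library lay on the other side of the control libraries than at P0, provided the higher embryonic group averaged 1 CPM or more; Rxrg and Tac1 at E15.5 were below that level. Of the genes reported here, 1 was flagged at E13.5 and 6 at E15.5. With so few libraries a group, such a separation can arise from their spread alone. The share of all embryonic genes that separate this way was not computed, so the counts are not a result about these genes. Ebf1 was higher in the mutant at E13.5 (log2 fold change 1.69, edgeR, adjusted p = 0.00254) and at E15.5 (0.83, adjusted p = 0.449), and lower at P0 (-3.25). The other genes were flagged at E15.5 alone, where there were 2 units a group, and none of them passed the test at that age. Tmem158 had 0.56 at E15.5 and -1.68 at P0, Gabra5 0.34 (adjusted p = 0.778) and -1.52, E130208F15Rik 0.20 and -2.32, and the pseudogene Gm6472 0.11 and -1.71. At E13.5 Gabra5 was lower without overlap, as at P0 (-1.56, edgeR, adjusted p = 0.0787, with 0.0388 without control replicate 3 and up to 0.237 over the alternatives), and the libraries of Tmem158, E130208F15Rik, Gm6472 and Gm43305 overlapped. The long non-coding RNA Gm43305 went the other way, with -1.17 at E15.5 and 3.10 at P0. The difference between ages was not tested, because the ages stand in separate tables.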

How the results depend on the processing

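All 70 calls at P0 were kept, in the same direction, under every P0 alternative that tested them (a minimum mean of 5 CPM tested 56 of them, and all 56 passed). The number of further calls moved with the method: limma without its trend called 104 genes, DESeq2 on recovered reads 1278 (433 rose, 845 fell), and edgeR's quasi-likelihood test on the same reads 70. Leaving out 1 library gave 70 to 260 calls, with 105 without control replicate 1, 260 (191 rose, 69 fell) without control replicate 2 and 109 without control replicate 3. Outside pseudogenes and mitochondrial, globin, Malat1 and ribosomal RNA entries, 46 genes were called before and after rescaling to the remaining reads, an alternative chosen after seeing the data. Of the uncalled genes named, Emx1, Drd1, Bcl2l11 and Nkd1 passed without control replicate 2 (adjusted p = 0.0263, 0.0455, 0.0405 and 0.0297) and 13 passed with DESeq2. Signs near 0 changed for Meis2 (-0.00429 with TMM, -0.000353 with edgeR, -0.00078 with DESeq2, -0.0217 to 0.102 with 1 library left out), for Hbb-bt (-0.0272, -0.065 and -0.0654 with the same tools, -0.165 to 0.275 with 1 library left out), and, with 1 library left out, for Hbb-bs (-0.233 to 0.144) and Frzb (-0.00775 to 0.314).

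At E13.5 leaving out 1 library left 2 to 3 of the called genes past the threshold, and at E15.5 leaving out 1 unit left 2 to 4 (2 without control replicate 1, Bcl11a-CKO replicate 1, or the Bcl11a-CKO animal of replicates 2 and 3). DESeq2, or each library as its own unit, gave 5 at E15.5, adding Itga9. Where an arm has 1 unit, it is assumed to vary like the other groups.

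The P0 groups share the replicate numbers 1 to 3, but same-numbered deviations correlated at 0.159, 0.14 and 0.0912, and control replicate 3 correlated best with Bcl11a-CKO replicate 2 (0.145), so the numbers were not read as pairs. A fit with the replicate number as a block called 71 genes, the same 70 among them.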
